A study of Mus musculus with 21 samples.

Results

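Neutrophil granule proteins were followed through the mRNA of 10 genes, of 54123 genes in the series. They were chosen by symbol, with earlier results of these data known: Mpo, Elane and Prtn3 for azurophil granules, Ltf, Camp, Ngp, Lcn2 and Mmp8 for specific granules, and Mmp9 and Retnlg for gelatinase granules. The series held 21 RNA-Seq libraries of wildtype mice, male C57BL/6 animals of 8 to 12 weeks by the study's methods, in 8 groups. Cells were taken 24 hours after surgery, either renal ischemia-reperfusion injury (IRI), in which both renal pedicles were clamped for a time, or a sham operation of the same kind without clamps. Before surgery the mice received remote ischemic preconditioning (RIPC), brief inflations of a pressure cuff on a hind limb, or a control procedure. Neutrophils (PMNs), labelled as from blood, had 2 sham control, 3 sham RIPC, 2 IRI control and 3 IRI RIPC libraries. Renal tubular epithelial cells (TECs) came from kidney, with 3 sham control, 3 sham RIPC, 2 IRI control and 3 IRI RIPC libraries. The labels call the cells sorted without giving the gate, and do not say which libraries came from separate animals, although the study calls them biological replicates, so p-values here measure the spread between libraries.

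Neutrophils fill their granules in order while they mature in the bone marrow. Azurophil granules, with myeloperoxidase and the serine proteases, are made at the promyelocyte stage, specific granules at the myelocyte and metamyelocyte stages, and gelatinase granules in band cells. The mRNA of each class is made mainly at its own stage, so circulating neutrophils are known for little azurophil mRNA. The mRNA level is not the protein content, which persists in the granules.

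In GRCm38, 3 of the specific granule genes lie within a short part of chromosome 9. Camp spans chr9:109847379-109849617 on the minus strand, Ngp chr9:110419747-110423012 and Ltf chr9:111019271-111042767, with gaps of 0.570 Mb and 0.596 Mb. Mmp8 lies far from them, at chr9:7558456-7568485. Prtn3 (chr10:79874476-79883174) and Elane (chr10:79886247-79888215) are 3072 bases apart. Mpo is at chr11:87793581-87804413, Lcn2 at chr2:32384633-32388252 on the minus strand, Mmp9 at chr2:164940780-164955850 and Retnlg at chr16:48872621-48874496. Genes without a named strand lie on the plus strand.

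Granule genes are known targets of C/EBP factors and PU.1, so RefSeq promoters (GRCm38.p6) were searched on both strands, over the 250 bases before the start, for TTGCNNAA, the core of a C/EBP site, GAGGAA, the core of a PU.1 site, and TATAAA. Of the 10 genes, 9 had an entry, the exception being Mmp9. TTGCNNAA was found in 5 of 9 (Ltf, Ngp, Lcn2, Mmp8 and Retnlg), against 9.56% of 32851 promoters. GAGGAA was found in 6 of 9 (Mpo, Elane, Prtn3, Ltf, Lcn2 and Mmp8), against 23.3% of promoters, and TATAAA in 0 of 9, against 12.4%. A match describes letters and not a bound site. Both TTGCNNAA and GAGGAA were found in more than 1 class. The 5 promoters below, 1 of an azurophil, 3 of specific and 1 of a gelatinase granule gene, are shown as examples of the classes. Each has 120 bases on the plus strand and ends before every annotated start. Capitals mark GAGGAA in Elane, and TTGCNNAA in Ngp and Mmp8 or its reverse complement in Ltf. Retnlg has no match in the stretch shown, as its TTGCNNAA match starts at position -246. The GAGGAA matches of Ltf and Mmp8 also lie outside the stretches shown.
Elane, chr10:79886127-79886246: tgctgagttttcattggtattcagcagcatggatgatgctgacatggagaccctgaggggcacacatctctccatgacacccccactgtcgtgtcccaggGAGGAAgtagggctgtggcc
Ltf, chr9:111019151-111019270: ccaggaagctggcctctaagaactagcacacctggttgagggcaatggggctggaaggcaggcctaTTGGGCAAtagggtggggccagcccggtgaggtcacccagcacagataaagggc
Ngp, chr9:110419627-110419746: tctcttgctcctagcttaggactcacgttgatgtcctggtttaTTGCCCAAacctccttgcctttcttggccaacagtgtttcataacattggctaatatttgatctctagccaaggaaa
Mmp8, chr9:7558309-7558428: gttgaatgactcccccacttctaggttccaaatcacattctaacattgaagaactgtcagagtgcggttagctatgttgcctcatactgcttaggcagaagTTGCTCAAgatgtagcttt
Retnlg, chr16:48872488-48872607: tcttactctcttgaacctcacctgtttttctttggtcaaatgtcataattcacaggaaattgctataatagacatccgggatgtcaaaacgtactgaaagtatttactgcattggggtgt

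The estimated counts summed to 20881334 to 30507235 per PMN library and 21479605 to 51624602 per TEC library. The 7 neutrophil identity markers, which include S100a8, S100a9, Ly6g and Il1r2, summed to 4763 to 20220 CPM (counts normalised to library size) in sham PMNs and 15120 to 26890 in IRI PMNs, against 1.80 to 34.0 in sham and 31.4 to 141.3 in IRI TECs, which were scaled separately. Of these, Il1r2 alone had 263.3 to 2372 CPM in sham and 5896 to 8782 CPM in IRI PMNs. S100a8 and S100a9 together overlapped, at 4190 to 17370 CPM in sham and 6303 to 17100 CPM in IRI PMNs. The PMN libraries also held RNA of other cells. The 12 tubular epithelium markers summed to 1302 to 15450 CPM in sham PMNs, with 1302 in sham control library 1 and 3070 or more in the other sham libraries, and to 603.5 to 1205 in IRI PMNs. Kap alone, a proximal tubule gene, had 870.7 to 7548 CPM in sham PMNs, against 1361 to 6019 CPM in sham TECs, so the sham libraries labelled as blood neutrophils hold RNA of this kidney gene, and how it entered them was not tested. The 8 monocyte and macrophage markers summed to 2768 to 8871 CPM in sham and 750.2 to 1881 in IRI PMNs. These lists were thus lower in every IRI than in every sham PMN library, their part in the results below was not tested, and fewer cells of a type and less RNA per cell cannot be told apart. Sham control library 1 stood apart from the other sham PMN libraries in most granule genes, so results are given with and without it.

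The azurophil granule genes had 0 reads in nearly all sham PMN libraries and low levels after IRI. Mpo, which makes hypochlorous acid, had 0 reads in all 5 sham PMN libraries. After IRI it had 0 and 5.99 CPM in the control libraries and 37.2, 8.69 and 18.8 CPM in the RIPC libraries, so 4 of 5 IRI libraries stood above every sham library. Against a floor of 3 reads per library, mean Mpo was at least 104.5-fold higher after IRI than after sham, and at least 61.9-fold without IRI RIPC library 1. Elane, neutrophil elastase, also had 0 reads in the 5 sham libraries. It had 8.34 and 13.0 CPM in the IRI control libraries and 17.6, 14.2 and 0 CPM in the IRI RIPC libraries. Its mean after IRI was 78.4-fold higher than the same floor. Prtn3, proteinase 3, had 22.9 CPM in sham control library 1 and 0 in the other 4 sham libraries. After IRI it had 0 and 3.92 CPM without and 40.0, 5.76 and 23.1 CPM with RIPC. Of the Prtn3 reads in PMNs, 55.8% were assigned to a transcript with a retained intron, Prtn3-204, and 40.4% to coding transcripts. In IRI RIPC library 3 this transcript took 589 of 601 reads, whereas the other members had at least 93.8% of their PMN reads on coding transcripts.

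The specific granule genes fell into rare and abundant members. Ltf, which encodes the iron-binding lactoferrin, had 638 and 0 CPM in the sham control libraries and 1.23, 0 and 30.5 CPM in the sham RIPC libraries. After IRI it had 67.1 and 13.4 CPM without and 64.5, 1.48 and 34.5 CPM with RIPC. Camp, the precursor of the antimicrobial peptide CRAMP, had 104.9 and 0 CPM in sham control, 0, 0 and 28.6 in sham RIPC, 3.40 and 4.52 in IRI control and 20.9, 5.80 and 14.4 in IRI RIPC libraries. For both genes the sham libraries spanned the whole range of the IRI libraries. Ngp, neutrophilic granule protein, had 2939 and 22.6 CPM in sham control libraries and 0.0471, 32.6 and 131.9 CPM in sham RIPC libraries. It had 1634 and 1530 CPM in IRI control libraries and 2087, 1802 and 662.2 CPM in IRI RIPC libraries. Sham control library 1 was the highest of all 10 for Ngp, and the other 4 sham libraries lay below every IRI library.

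Lcn2 and Mmp8 were present in every PMN library. Lcn2, a carrier of iron-binding siderophores that injured tubules make as well, had 988 and 130.4 CPM in sham control, 231.9, 295.1 and 169.4 in sham RIPC, 859.9 and 1073 in IRI control and 1172, 1723 and 597.3 in IRI RIPC libraries. Mmp8, neutrophil collagenase, had 2224 and 301.6 CPM in sham control, 177.7, 255.0 and 145.2 in sham RIPC, 1701 and 3004 in IRI control and 1880, 2905 and 1555 in IRI RIPC libraries. Sham control library 1 again reached the range of the IRI libraries for both.

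Both gelatinase granule genes were present in every PMN library. Mmp9, gelatinase B, had 489.6 and 209.9 CPM in sham control, 103.5, 260.0 and 111.4 in sham RIPC, 1099 and 879.5 in IRI control and 1308, 1703 and 481.0 in IRI RIPC libraries. Its groups overlapped by 1 pair of libraries, with sham control library 1 just above IRI RIPC library 3. Retnlg, a resistin-like protein of neutrophils, had 3476 and 1017 CPM in sham control, 1184, 1239 and 845.8 in sham RIPC, 4261 and 4964 in IRI control and 4412, 7070 and 2027 in IRI RIPC libraries.

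**Figure D1:**
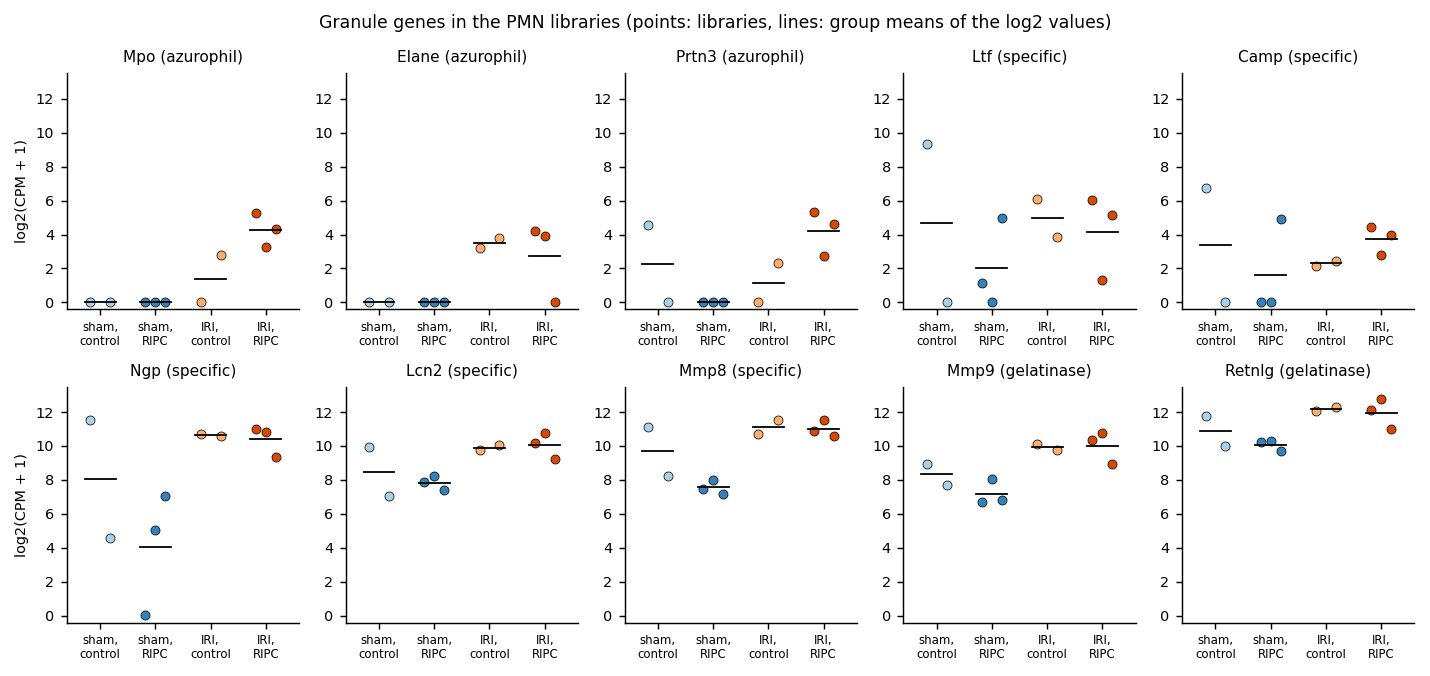
Normalised levels of the 10 granule genes in the 10 PMN libraries, as log2(CPM + 1), by surgery (sham or IRI) and procedure (control or RIPC). Points are libraries and lines are group means of the log2 values. Mpo and Elane are at 0 in all 5 sham libraries, and in the sham control group 1 library lies well above the other for Ltf, Camp, Ngp, Lcn2 and Mmp8.

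Across all genes, none of the 10 members passed the test of IRI against sham in PMNs (edgeR quasi-likelihood F test, Benjamini-Hochberg adjusted p under 0.05), where 0.416% of 25002 genes did and 0.364% rose. At an unadjusted p under 0.05 stood 6 of 10 members (Mpo, Elane, Lcn2, Mmp8, Mmp9 and Retnlg), against 11.8% of all genes. The median log2 fold change of the members was 2.18, against -0.01 over all genes. The estimate for Mmp9 was 2.19 ± 0.46 (log2, SE; adjusted p = 0.12), for Mmp8 2.18 ± 0.51 (adjusted p = 0.16), for Retnlg 1.54 ± 0.41 (adjusted p = 0.21) and for Lcn2 1.56 ± 0.53 (adjusted p = 0.36). Less precise were Ngp at 2.44 ± 1.47 (adjusted p = 0.51) and Prtn3 at 4.78 ± 2.29 (adjusted p = 0.42). Ltf was at -0.66 ± 1.97 and Camp at -1.60 ± 2.15, with adjusted p of 0.98 and 0.82. The adjusted p was 0.25 for Mpo and 0.28 for Elane.

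These results depended on sham control library 1 and on the tool. In edgeR refitted without that library, the log2 estimate was 2.62 for Lcn2, 3.22 for Mmp8 and 2.13 for Retnlg. That fit left 1 sham control library, so its p-values are not given here. In that fit 1.26% of genes were called, and the median log2 fold change of all genes moved to 1.08. DESeq2's Wald test called 6 members, where it called 7.82% of all genes, and edgeR with no filter on low counts called 7, where it called 2.5%. In CPM, 0 of 10 members had every IRI library above every sham library (3.43% of genes did), and without sham control library 1 there were 5, Ngp, Lcn2, Mmp8, Mmp9 and Retnlg (5.06% of genes).

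Since the summed neutrophil markers differed between libraries, each member was also set against S100a8 and S100a9, cytosolic proteins abundant in neutrophils, a scale added after the data were seen. The summed level of these genes was 4190 to 17370 CPM in sham and 6303 to 17100 CPM in IRI PMNs. On this scale Lcn2, Mmp8, Mmp9 and Retnlg had every IRI library above every sham library, sham control library 1 included, which held for 2.24% of genes. Retnlg had 140.2 to 201.8 reads per 1000 S100a8 and S100a9 reads in sham libraries (median 179.3) and 321.6 to 528.6 in IRI libraries (median 434.8). Mmp8 had 21.1 to 128.0 (median 36.9) in sham and 169.9 to 302.8 (median 211.0) in IRI libraries. Lcn2 had 18.1 to 56.9 (median 40.4) and 94.8 to 115.5 (median 106.7), and Mmp9 12.3 to 37.6 (median 28.2) and 76.3 to 136.4 (median 99.6).

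The mean log2 ratio was higher after IRI by 2.35 for Mmp8, 2.04 for Mmp9, 1.61 for Lcn2 and 1.35 for Retnlg, each with p = 0.0079 in a two-sided exact permutation test of 5 against 5 libraries, the smallest p it can give. These p-values were not corrected for the number of genes. Leaving out any 1 library, the difference ranged from 2.09 to 2.75 for Mmp8, 1.78 to 2.19 for Mmp9, 1.37 to 1.79 for Lcn2 and 1.28 to 1.46 for Retnlg. Ngp had 0.00558 to 169.2 reads per 1000 in sham and 105.0 to 205.7 in IRI libraries (exact permutation p = 0.032), with only sham control library 1 inside the IRI range. Ltf (p = 0.34) and Camp (p = 0.19, exact permutation tests) overlapped widely. When edgeR was scaled to the same reads, no member passed, with adjusted p of 0.091 for Mmp8, 0.092 for Retnlg, 0.14 for Mmp9 and 0.26 for Lcn2, where 0.064% of genes did. The neutrophil surface gene Ly6g overlapped, at 2.48 to 9.29 reads per 1000 in sham and 3.15 to 8.12 in IRI libraries (exact permutation p = 0.79), whereas the chemokine receptor gene Cxcr2 had 3.45 to 34.0 and 42.2 to 131.4.

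**Figure D2:**
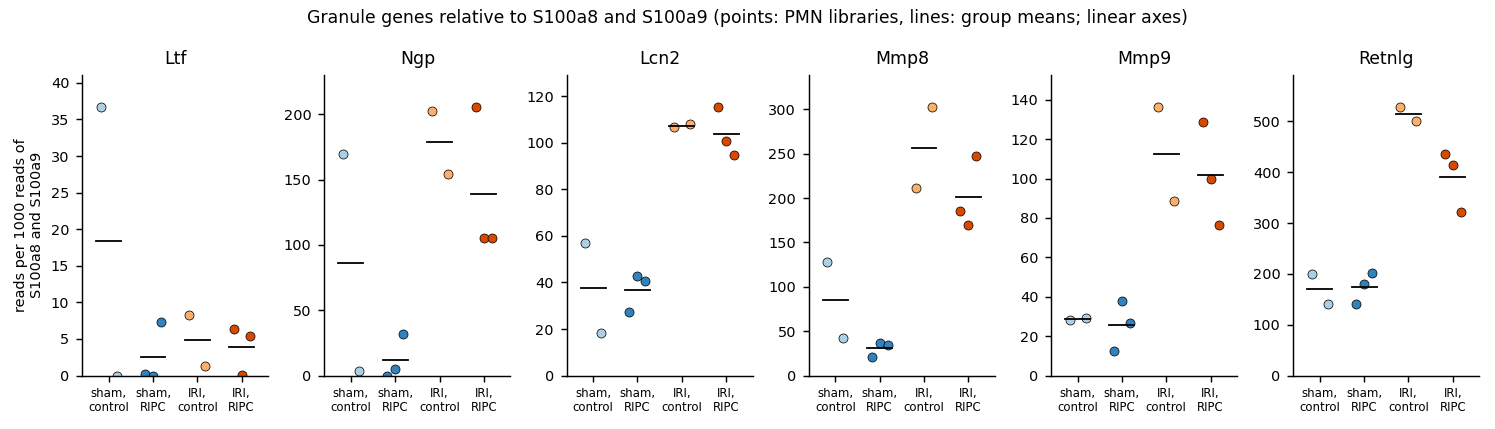
Reads of 6 granule genes per 1000 reads of S100a8 and S100a9 in the 10 PMN libraries, by surgery and procedure, on linear axes that start at 0. Points are libraries and lines are group means. For Lcn2, Mmp8, Mmp9 and Retnlg all 5 IRI libraries lie above all 5 sham libraries, and for Ltf and Ngp sham control library 1 reaches or passes the IRI libraries.

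The make-up of the granule mRNA was read per length, in TPM, which divides reads by transcript length and sets every library to the same total. Retnlg was the most abundant member in both arms, with a median of 1444 TPM in sham and 5363 TPM in IRI libraries, and its lowest library was above the highest library of the next gene in either arm. In sham libraries Lcn2 (166.5), Mmp8 (56.8), Mmp9 (47.5) and Ngp (16.9 TPM) followed, with overlapping ranges. In IRI libraries Ngp (873.2), Lcn2 (797.7) and Mmp8 (427.2 TPM) followed and overlapped as neighbours, while Mmp9 (257.0 TPM) was apart from Mmp8 above it and from Ltf (22.5 TPM) below it. Elane, Prtn3, Mpo and Camp came last, at medians of 5.77 to 10.6 TPM after IRI and 0 after sham.

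By class, gelatinase granule genes made up 78.0 to 88.6% of the summed TPM of the 10 genes in 4 sham libraries and 56.4% in sham control library 1, against 68.8 to 75.7% in IRI libraries. Specific granule genes took 11.4 to 22.0% in those 4 sham libraries, 43.3% in sham control library 1 and 24.0 to 30.4% in IRI libraries. Azurophil granule genes took 0% in 4 sham libraries, 0.326% in sham control library 1 and 0.093 to 0.880% in IRI libraries. The gelatinase part was mainly Retnlg, at 929 to 8190 TPM over the PMN libraries, where Mmp9 had 21.6 to 355.1 TPM. In every PMN library the 2 gelatinase granule members, through Retnlg, gave most of the summed TPM of the 10 genes and the 3 azurophil members under 1%. This order holds for these members only. In CPM, which is not per length, the 7 other azurophil granule genes listed summed to 3317 to 11330 in sham and 4727 to 8394 in IRI PMNs. Of these, Lyz2 alone had 2020 to 8697 CPM in sham and 1358 to 4091 CPM in IRI PMNs. Ctsg had reads only in sham RIPC library 1 and IRI RIPC library 3 of the PMNs, and Bpi only in IRI control library 1. The same azurophil list summed to 1219 to 2437 CPM in sham TECs, and the cell source of these sums was not tested. The 3 other gelatinase granule genes summed to 211.4 to 533.9 CPM in sham and 1284 to 1816 CPM in IRI PMNs. Together the 10 genes held 0.145 to 0.209% of reads in 4 sham libraries, 1.18% in sham control library 1 and 0.480 to 1.27% in IRI libraries.

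**Figure D3:**
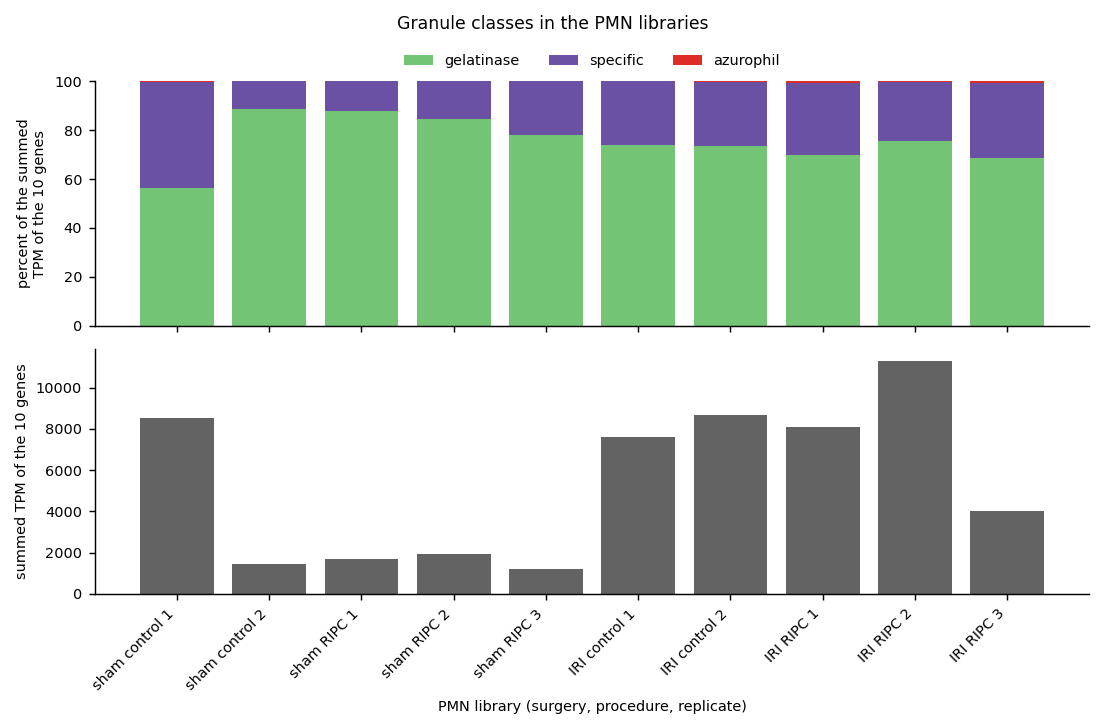
Upper panel, share of the summed TPM of the 10 granule genes that falls to gelatinase, specific and azurophil granule genes in each PMN library, in percent. Lower panel, the summed TPM. Sham control library 1 has the highest specific share, 43.3%, and a summed TPM of 8541, within the 4039 to 11290 of the IRI libraries and above the 1223 to 1916 of the other sham libraries.

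Genes outside the members were ranked by Pearson's r of log2(CPM + 1) with the mean of each class over the 10 PMN libraries, as a description of libraries that share their depth and make-up. Among the closest to the azurophil class were Haus6 (r = 0.969), Dyrk1b (0.968) and Gm47922 (0.968), to the specific class Krt83 (0.966) and Lsm14a (0.940), and to the gelatinase class Adgre5 (0.978), Lrg1 (0.976) and Gm27252 (0.974). Lrg1, which encodes a secreted glycoprotein that neutrophils also store, had 104.0 to 776.3 CPM in sham and 578.9 to 1841 CPM in IRI libraries.

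Other genes that mark granules and maturation were described from lists, which were not chosen independently of earlier results of these data. The 3 other gelatinase granule genes included Adam8, a membrane protease, which rose after IRI by 2.87 ± 0.29 (log2, SE; edgeR adjusted p = 0.0088), from 55.3 to 298.2 CPM in sham to 952.8 to 1255 CPM in IRI PMNs. It passed without any 1 library, but not when scaled to S100a8 and S100a9 (adjusted p = 0.14). Of 6 other azurophil granule genes tested, Srgn, the granule proteoglycan serglycin, rose by 1.97 ± 0.29 (adjusted p = 0.029), and its call was lost without sham RIPC library 2, IRI control library 2 or any 1 of the IRI RIPC libraries (adjusted p of 0.0041 to 0.089 over all 10 omissions). Of 8 other specific granule genes 0 passed. Among the most abundant of these, Chil3 was at 1.95 ± 0.48 (adjusted p = 0.17), Hp, haptoglobin, at 1.64 ± 0.28 (adjusted p = 0.052) and Cyba, a subunit of the NADPH oxidase, at -0.66 ± 0.35 (adjusted p = 0.44).

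Of 10 genes for receptors of mature neutrophils 5 rose after IRI and 0 fell, where 0.416% of all genes were called and 0.364% rose, and the list summed to 1401 to 6963 CPM in sham and 17200 to 24190 CPM in IRI PMNs. Cd14 and Il1r2 gave most of the IRI sums. Cd14 had 511.6 to 2841 CPM in sham and 7895 to 11250 CPM in IRI PMNs, and Il1r2 263.3 to 2372 and 5896 to 8782 CPM. Trem1, an amplifier of inflammatory signals, rose by 2.55 ± 0.31 (adjusted p = 0.018) and Cd14, a coreceptor for lipopolysaccharide, by 2.76 ± 0.38 (adjusted p = 0.026). The formyl peptide receptor genes Fpr1 and Fpr2 rose by 3.04 ± 0.50 (adjusted p = 0.047) and 2.61 ± 0.38 (adjusted p = 0.029), and the decoy receptor gene Il1r2, also an identity marker, by 3.17 ± 0.53 (adjusted p = 0.049). The calls of Trem1 and Cd14 were lost without any 1 of the 3 IRI RIPC libraries. Those of Fpr1, Fpr2 and Il1r2 were lost without most single libraries and held without sham control library 1, with adjusted p of 0.016 to 0.12 for Fpr1, 0.023 to 0.17 for Fpr2 and 0.0028 to 0.12 for Il1r2.

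Transcription factors of granulopoiesis and genes of dividing cells gave no edgeR call for IRI against sham. Of 8 transcription factors of granulopoiesis 7 were tested and 0 passed, and Gfi1, a repressor needed for granulopoiesis, had 0 reads in every PMN library. Spi1, which encodes PU.1, was at -0.06 ± 0.50 (adjusted p = 1.00), an average over unlike IRI groups. It had 50.0 and 90.1 CPM in IRI control and 543.2, 637.3 and 644.9 CPM in IRI RIPC libraries, against 42.4 to 338 CPM in sham libraries. For RIPC against control after IRI Spi1 was at 3.12 ± 0.81 (edgeR adjusted p = 0.92), where DESeq2's Wald test called it (adjusted p = 0.024). The list, Spi1 included, summed to 128.8 and 240.2 CPM in IRI control and 709.1 to 1040 CPM in IRI RIPC libraries, against 123.7 to 518.4 CPM after sham. Spi1 was the larger part of each IRI RIPC sum, and Cebpd added 210.5 CPM in IRI RIPC library 3. Cebpd was at 1.37 ± 1.11 (adjusted p = 0.63) and Rara at 0.84 ± 0.79 (adjusted p = 0.69). Of 13 genes of dividing cells and progenitors 0 passed, with sums of 65.7 to 213.2 CPM in sham and 96.6 to 193.5 CPM in IRI PMNs. Its most abundant members were Cd34 (-0.87 ± 0.44, adjusted p = 0.42), Top2a (-2.19 ± 1.29, adjusted p = 0.50) and Tk1 (0.29 ± 1.71, adjusted p = 1.00).

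Of the markers of other cell types 0 passed, although 9 of 12 tubular epithelium and 5 of 8 monocyte and macrophage markers had an unadjusted p under 0.05, against 11.8% of genes. Kap, a proximal tubule gene, was at -3.12 ± 0.56 (adjusted p = 0.068) and C1qa, a complement gene of macrophages, at -2.53 ± 0.49 (adjusted p = 0.091). The sums in sham and IRI PMNs were 42.4 to 597.8 and 35.6 to 587.9 CPM for 5 tubular injury markers, 8.63 to 101.4 and 6.89 to 41.9 CPM for 6 lymphocyte markers, and 89.5 to 223.9 and 11.9 to 350.6 CPM for 5 erythroid markers. They were 0 to 2.37 and 0.995 to 38.3 CPM for 6 eosinophil and basophil markers, 11.7 to 192.4 and 36.3 to 320.6 CPM for 3 platelet markers, and 5.02 to 145.1 and 3.09 to 53.6 CPM for 4 endothelium markers. These 6 lists overlapped between the arms.

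**Figure D4:**
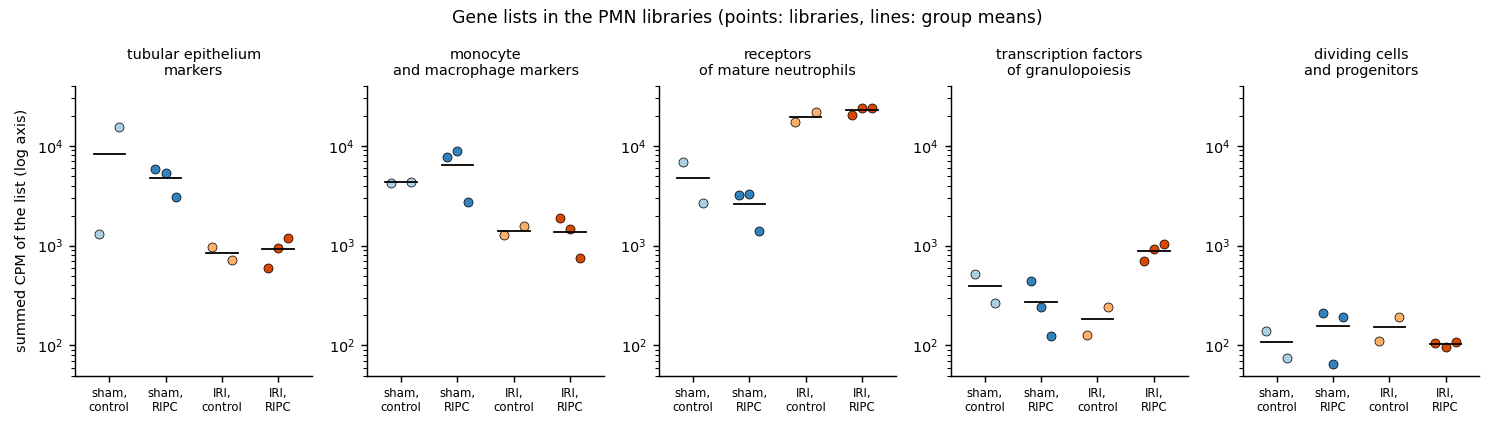
Summed CPM of 5 gene lists in the 10 PMN libraries on log axes, by surgery and procedure. Points are libraries and lines are group means. Tubular epithelium and macrophage markers are lower and receptors of mature neutrophils higher in every IRI library than in every sham library, while the genes of dividing cells and progenitors overlap.

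RIPC, which the study examined as a protection of the kidney from IRI, was compared with the control procedure within each kind of surgery. After sham surgery 0 of 10 members passed in PMNs, where 0.004% of 25002 genes did. Mmp8 was at -2.71 ± 0.69 in RIPC against control (edgeR adjusted p = 0.71), and was the 1 member with every RIPC library below every control library, as 8.24% of genes had. Without sham control library 2 Mmp8 was at -3.50, and without sham control library 1 it was at -0.68. Each of these fits left 1 sham control library, so no p is given for them. Ngp was at -4.76 ± 2.12, Lcn2 at -1.27 ± 0.72, Mmp9 at -1.14 ± 0.61 and Retnlg at -1.04 ± 0.56, each with an adjusted p of 0.71. Without sham control library 1 the estimates of Ngp, Lcn2 and Retnlg turned to 1.24, 0.80 and 0.07, and those of Ltf and Camp turned as well.

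After IRI 0 of 10 members passed for RIPC against control in PMNs, where edgeR called 0 of 25002 genes, 0%, although 680 had an unadjusted p under 0.05 and DESeq2's Wald test called 429. Lcn2 was at 0.27 ± 0.73, Mmp8 at -0.15 ± 0.68, Mmp9 at 0.23 ± 0.62, Retnlg at -0.03 ± 0.56 and Ngp at -0.06 ± 1.96, each with an adjusted p of 1.00. Mpo, Prtn3 and Camp had every RIPC library above both control libraries, as 6.41% of genes had, at 2.85 ± 2.59, 3.55 ± 3.20 and 1.79 ± 3.16. For Prtn3 this did not hold on coding transcripts. These had 0 and 72 reads in the IRI control and 767, 3 and 12 reads in the IRI RIPC libraries. The effect of RIPC did not pass as different between IRI and sham surgery for any member (0% of genes called, with 1434 genes at an unadjusted p under 0.05 and 669 called by DESeq2), and Mmp8, at 2.56 ± 0.99, had an adjusted p of 0.72. With 2 or 3 libraries per group, differences of the size of the standard errors given were not detectable.

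In TECs the members were rare and Lcn2 was the most abundant. Lcn2 had 52.8, 0 and 0.821 CPM in sham control libraries, 0, 0.0798 and 0 in sham RIPC, 87.3 and 231.0 in IRI control and 21.2, 101.9 and 0.189 in IRI RIPC libraries. Sham control library 1 and IRI RIPC library 3 thus ran against their groups. Retnlg had at most 1 read in any sham library and 6.97 and 23.5 CPM in IRI control and 9.08, 0 and 0.236 CPM in IRI RIPC libraries. Mmp8 had at most 4 reads in sham libraries and 0.0810 and 3.05 CPM in IRI control and 19.9, 3.72 and 3.92 CPM in IRI RIPC libraries. Camp had 0 reads in every TEC library, Ltf at most 4 and Ngp at most 10. Mmp9 reached 10.1 CPM in IRI RIPC library 2 and had at most 4 reads elsewhere.

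Only 4 members (Mpo, Lcn2, Mmp8 and Retnlg) had enough reads to be tested for IRI against sham in TECs, and 0 passed, where 1.4% of 25917 genes did. Lcn2 was at 6.73 ± 1.73 (edgeR adjusted p = 0.079), Retnlg at 9.51 ± 2.31 (adjusted p = 0.073), Mmp8 at 7.06 ± 1.97 (adjusted p = 0.11) and Mpo at -0.52 ± 0.81 (adjusted p = 0.85). For Mpo the fitted sign went against the levels, with a mean of 2.42 CPM after IRI and 0.216 CPM after sham, and the mean of log2(CPM + 1) was 1.06 higher after IRI (exact permutation p = 0.12). Lcn2 rose without sham control library 1 (edgeR adjusted p = 0.020), where 379 of 25317 genes were called, or IRI RIPC library 3 (adjusted p = 0.027), where 714 of 25117 were. Its estimates were 5.76 to 9.50 over all 11 omissions. Leaving out an IRI control library left 1 library in that group, so no p is given for those fits. Retnlg rose without IRI RIPC library 2 (edgeR adjusted p = 0.040), where 458 of 24863 genes were called, or IRI RIPC library 3 (adjusted p = 0.049). Beside them S100a8 and S100a9 summed to 0.0830 to 2.88 CPM in sham and 1.46 to 40.3 CPM in IRI TECs, and their part in these values was not tested.

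For RIPC against control 0 of 4 members passed after sham (0% of genes called, 1175 at an unadjusted p under 0.05, 425 by DESeq2) or after IRI (0.00386%), and their RIPC effect did not pass as different between the surgeries (0%, with 1869 genes at an unadjusted p under 0.05 and 597 called by DESeq2). After sham Lcn2 was at -9.10 ± 2.72 (edgeR adjusted p = 0.71) and at -3.65 without sham control library 1, and DESeq2's Wald test called it (adjusted p = 0.0048). After IRI Mpo and Mmp8 had every RIPC library above both control libraries, as 7.76% of genes had. Mpo had 0 reads in both control libraries and 2.06 to 7.74 CPM in the RIPC libraries (edgeR adjusted p = 0.78), and Mmp8 was at 2.55 ± 2.62 (adjusted p = 0.95).

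The members in TECs were set against S100a8 and S100a9 as well. The IRI TEC libraries summed to 9771 Lcn2, 903 Retnlg, 741 Mmp8 and 4 Ngp reads with 2677 of S100a8 and S100a9, whereas the IRI PMN libraries had 136771, 572529, 280134 and 194743 with 1298150. Per S100a8 and S100a9 read the IRI sums gave 0.337 Retnlg reads in TECs and 0.441 in PMNs, 0.277 and 0.216 Mmp8 reads, 0.00149 and 0.150 Ngp reads and 3.65 and 0.105 Lcn2 reads. By library Retnlg had 0 to 0.583 reads per S100a8 and S100a9 read in IRI TECs and 0.322 to 0.529 in IRI PMNs, so the ranges overlapped. Mmp8 had 0.00287 to 2.68 in IRI TECs, a far wider range than the 0.170 to 0.303 in IRI PMNs. Of its 741 reads in IRI TECs, 511 came from IRI RIPC library 1. Lcn2 had 0.0181 to 0.116 reads per S100a8 and S100a9 read in PMN libraries and 0.129 to 21.6 in IRI TEC libraries. Sham TEC control library 1 had 1217 Lcn2 reads with 3 of Ngp and 55 of S100a8 and S100a9.

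**Figure D5:**
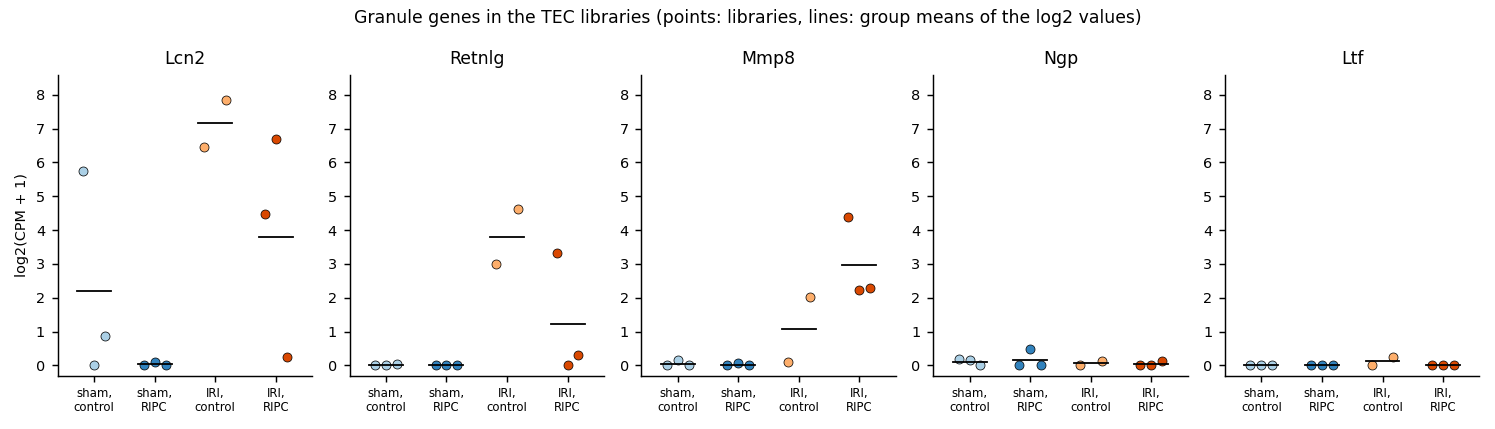
Normalised levels of 5 granule genes in the 11 TEC libraries, as log2(CPM + 1), by surgery and procedure. Points are libraries and lines are group means of the log2 values. Lcn2 is above 20 CPM in 4 of 5 IRI libraries and in 1 sham library, and Ngp and Ltf stay below 1 CPM in all.

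PMNs were set against TECs in a fit of all 21 libraries. After sham surgery 7 of 10 members were higher in PMNs, against 2.62% of 31769 genes called and 1.49% higher. They were Ltf (adjusted p = 0.014), Camp (0.037), Ngp (0.00042), Lcn2 (0.0028), Mmp8 (2e-06), Mmp9 (0.00014) and Retnlg (5e-06, all edgeR adjusted p). Lcn2 was higher by 9.0 ± 1.6 on the log2 scale. Ltf and Camp had 0 reads in every sham TEC library. Set against the same floor of 3 reads they were 1135-fold and 226.3-fold higher on average in PMNs. Both calls were lost without PMN sham control library 1, where the folds against the floor were 67.1 and 60.6. The call of Ltf was also lost without TEC sham control library 2, and that of Camp without PMN sham RIPC library 3 or any 1 sham TEC library.

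After IRI 4 of 10 members were higher in PMNs, against 2.67% of genes called and 1.49% higher. Ngp (adjusted p = 0.00055), Mmp8 (0.00016), Mmp9 (0.0012) and Retnlg (0.00086) passed, and Lcn2, at 3.86 ± 1.42, had an adjusted p of 0.21. The difference between cell types did not pass as changed by surgery for any member (0% of genes called, 3102 at an unadjusted p under 0.05, 2395 by DESeq2). It was -5.15 ± 1.86 for Lcn2 (adjusted p = 0.34), -4.83 ± 1.22 for Mmp8 (adjusted p = 0.19) and -7.95 ± 1.61 for Retnlg (adjusted p = 0.11).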

How the data were processed

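RNA-Seq libraries of sorted PMNs and TECs were analysed, 21 in 8 groups taken from the sample labels. Per the study's methods and submitters' processing notes, the authors made full-length cDNA from poly(A) RNA, sequenced single-end reads, trimmed them with Trim Galore 0.6.4 and quantified transcripts with Salmon 1.0.0 (Gencode vM23, build mm10). The deposited files hold estimated counts and TPM per transcript, and a library has 2 files. The 2 files of a library differed by 0.139 to 0.206 times the sampling SD (scaled median absolute difference, transcripts with at least 200 reads), so the added counts may hold most fragments in both files and a library was counted as 1 replicate. Estimated counts were added over both files and a gene's transcripts and rounded. Transcripts were matched to Gencode M21, 139864 of 140748, and unmatched ones held 0.139 to 0.255% of reads.

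Groups were compared with edgeR 4.0.16 (TMM, filterByExpr, quasi-likelihood F test, Benjamini-Hochberg adjusted p under 0.05 over all genes tested), with 1 mean per group and all groups of a cell type, or all 21 libraries for PMNs against TECs, sharing the spread. A surgery contrast averages the control and RIPC groups. CPM were TMM-normalised within a cell type, so PMN and TEC levels rest on separate scaling. Single genes were tested by two-sided exact permutation (252 splits in PMNs) on log2(CPM + 1) or on the ratio to S100a8 and S100a9 with 1 read added for the log. The deposited TPM were not used as such: TPM were recomputed from the added counts and the deposited effective lengths. Alternatives were DESeq2 1.42.0 (also with apeglm 1.24.0), other scaling and filters, single files, subsets of groups and omission of each library. A floor of 3 reads per library covers counting error only, and stands for fewer fragments where both files hold the same ones. Scripts were tested on simulated data. Named genes were the 10 members and, of each list, those past the threshold or else up to 3 of the highest mean CPM. The members, the lists and the rule were chosen with earlier results of these data known. Sex-chromosomal and mitochondrial genes were left out, as the authors did. One gene of the likeness ranking is not reported here.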

Additional observations from a re-analysis of the deposited data

Results flagged for a closer look

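The log2(CPM + 1) values of each member were examined for a single library far from the rest, in each cell type after each surgery, which gave 34 sets of 5 or 6 libraries with any reads. In all, 15 libraries stood apart, 5 in PMNs and 10 in TECs. The share of about 5% that chance marks does not hold for sets with most libraries at 0. There a library with 1 read can stand apart, so the count cannot be set against that share. In PMNs after sham surgery, control library 1 was far above the other sham libraries for Mmp8, at 2224 CPM against 301.6 or less, for Retnlg, at 3476 CPM against 1239 or less, and for Prtn3, at 22.9 CPM against 0. In PMNs after IRI, RIPC library 3 was far below the other IRI libraries for Ngp, at 662.2 CPM against 1530 or more, and for Elane, at 0 CPM against 8.34 or more.

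In TECs every such library was a high one among libraries at or near 0. After sham surgery Lcn2 reached 52.8 CPM and Prtn3 5.86 CPM in control library 1, Mmp8 0.111 CPM in control library 2, Mmp9 0.156 CPM and Retnlg 0.0391 CPM in control library 3, and Ngp 0.399 CPM in RIPC library 2. After IRI Elane reached 4.72 CPM and Ltf 0.191 CPM in control library 2, and Mmp9 10.1 CPM and Prtn3 0.0459 CPM in RIPC library 2.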

How the results depend on the processing

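With no filter on low counts edgeR called 971 genes for IRI against sham in PMNs (7 members), 139 for RIPC after sham (3 members), 18 for RIPC after IRI and 101 for the interaction (2 members). In TECs it called 1289 (2 members), 54 (1 member), 71 and 84 (1 member) genes in the same order, and it called 2222 genes (7 members) for PMNs against TECs after sham, 1763 (8 members) after IRI and 722 (5 members) for the cell type by surgery interaction. DESeq2's Wald test called 1955 (6 members), 813 (1 member), 429 and 669 (1 member) genes in PMNs, 2234 (2 members), 425 (1 member), 699 and 597 in TECs, and 4753 (7 members), 3725 (8 members) and 2395 (5 members) between cell types. With apeglm shrinkage, RIPC gave 528 genes (1 member, Mmp8) after sham and 39 after IRI in PMNs, and 62 and 248 in TECs.

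Scaled to S100a8 and S100a9 reads, an alternative added after seeing the data, the IRI comparison in PMNs called 16 genes. Within control groups alone IRI called 0 genes in PMNs and 1 in TECs, and within RIPC groups alone 62 and 25. RIPC after sham in PMNs called 0 genes in file 2 alone, with the compared groups alone and with the replicate block. RIPC after IRI in TECs called 2 genes in file 1 alone and 0 with the compared groups alone. The cell type by surgery interaction called 1 gene in file 1, 1 in file 2 and 4 with an offset for transcript length.

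Replicate numbers did not pair the samples: same-numbered libraries correlated at -0.04 to 0.04 in PMNs and -0.14 to 0.18 in TECs in their deviations from group means, and 6 of 10 PMN and 4 of 11 TEC libraries correlated best with their own number. The fit with a replicate block called 23 genes for IRI in PMNs and 3 for RIPC after IRI in TECs. It turned Ltf to 2.34, Camp to 2.70 and Spi1 to 0.16 for IRI in PMNs, and Mmp8 to 0.014 and Retnlg to 0.17 for RIPC after IRI.

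Other settings that turned a log2 estimate for IRI in PMNs were control groups only for Prtn3 (-2.54), RIPC groups only for Ltf (1.67), Camp (0.52), Spi1 (1.79) and Tk1 (-0.44), the difference of mean log2(CPM + 1) for Ltf (1.40) and Camp (0.83) and the length offset for Spi1 (0.23). For RIPC after IRI in PMNs, DESeq2 size factors and its Wald test turned Retnlg to 0.0597 and 0.0597 and Ngp to 0.0353 and 0.0353, and apeglm shrank Lcn2, Mmp8, Mmp9, Retnlg and Ngp to 0 at 2 decimals. For IRI in TECs Mpo turned to 0.0227 in file 1 alone, 0.763 with the replicate block, 4.87 in RIPC groups only and 1.06 as the difference of mean log2(CPM + 1). The cause was not tested.

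Leaving out each library gave 13 to 393 genes and 0 to 3 members for IRI in PMNs, the upper ends without sham control library 1, 0 to 11 genes and 0 to 1 member (Mmp8) for RIPC after sham, and 0 genes for RIPC after IRI and for the interaction. In TECs it gave 92 to 714 genes and 0 to 2 members for IRI, 0 for RIPC after sham, 1 to 22 for RIPC after IRI and 0 to 15 for the interaction. Between cell types it gave 549 to 1037 genes and 5 to 7 members after sham, 560 to 815 and 4 to 5 after IRI, and 0 to 124 and 0 to 2 for the interaction. The log2 estimates ranged from -1.43 to 7.30 for Ltf, -2.05 to 5.06 for Camp, -0.29 to 0.32 for Spi1 and -0.16 to 5.64 for Tk1 for IRI in PMNs. For RIPC after sham they ranged from -9.02 to 10.9 for Ltf, -13.3 to 10.8 for Camp, -6.50 to 1.24 for Ngp, -2.06 to 0.80 for Lcn2 and -1.64 to 0.0667 for Retnlg. For RIPC after IRI they ranged from -0.10 to 0.63 for Lcn2, -0.50 to 0.34 for Mmp8, -0.11 to 0.65 for Mmp9, -0.49 to 0.36 for Retnlg and -0.30 to 0.34 for Ngp, for IRI in TECs from -0.93 to 2.43 for Mpo, and for the PMN interaction from -1.28 to 6.44 for Ngp. At this depth a count of 0 was taken to allow up to 3 reads, 0.135 CPM on average in sham PMN libraries. It allows more if the 2 files of a library hold the same fragments.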
